A study of Homo sapiens with 9 samples.

Results

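The 7 genes described here encode the hypoxia-inducible factors (HIF) and the proteins that control them by oxygen: the α subunits HIF1A and EPAS1, their shared partner ARNT, the prolyl hydroxylases EGLN1 and EGLN2, the asparaginyl hydroxylase HIF1AN and the ubiquitin ligase subunit VHL. They were chosen by symbol, and all 7 were found among the 17911 genes of the count table and passed the filter on low counts. Read counts came from 9 RNA libraries that carry the name of MDA-MB-231, a long-established line from a human triple-negative breast cancer, with WT given as the cell type. The labels describe 3 capsule samples and 6 spheroid samples from liquid overlay, 3 of them small and 3 large. All 9 share 1 treatment text, which names 5% Matrigel, trastuzumab (an antibody against the receptor ERBB2) and 96 h of incubation before RNA was taken, and whose protocol field names liquid overlay for the capsules too. Cells were kept in RPMI with 10% serum under 5% CO2 at 37 °C. The labels do not say what the capsules were made of, nor whether replicates were separate cultures, so p-values measure only the spread between these libraries, which may be technical.

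In the presence of oxygen, EGLN enzymes hydroxylate prolines of HIF1A and EPAS1. VHL, which holds the substrate in a ligase with ELOB, ELOC, CUL2 and RBX1, then marks the α subunit for the proteasome. HIF1AN hydroxylates an asparagine and so blocks the binding of coactivators. When oxygen is low, the α subunit persists, pairs with ARNT and binds ACGTG or GCGTG near its target genes, EGLN3 among them. Much of this control acts on protein, which RNA counts do not measure.

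The 6 spheroid columns bear 2 kinds of name, L.O and Sph.WT, with 3 columns each and no size. They are called by these names here, and neither is taken to be the small or the large spheroids. The names of the capsule and L.O columns mention subread and those of the Sph.WT columns do not. Library totals ran from 13212665 to 15988167 counts in the capsule and L.O columns and from 16605098 to 33263076 in Sph.WT.

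The Sph.WT libraries stood apart from the other 6. Pearson's r of log2 levels over genes, which do not count as replicates, was 0.973 to 0.984 between capsule and L.O libraries and 0.645 to 0.676 between either of these and Sph.WT. Of 20 markers listed for MDA-MB-231, all 20 reached 5 CPM in every Sph.WT library, against 11 in the capsule and 12 in the L.O libraries, and their summed level was 9414 to 10750 CPM in Sph.WT, 1204 to 1285 in capsules and 1394 to 1459 in L.O. Of these 20, 19 had their highest mean in Sph.WT and 1, GSTP1, in capsules. The hyaluronan receptor CD44, a defining gene of the line, was at 1016 ± 62.6 CPM (SD, n = 3) in Sph.WT, 2.12 ± 0.326 in capsules and 4.97 ± 0.278 in L.O. Markers listed for HEK293, an embryonic kidney line, went the other way: the 12 in the table summed to 2562 to 2850 CPM in capsules, 2211 to 2527 in L.O and 127 to 139 in Sph.WT, where NEFL, PAX2 and LHX1 had no count. Of these 12, 7 had their highest mean in capsules, 4 in L.O and 1, PAX8, in Sph.WT. CDKN2A, a cell cycle inhibitor known to be deleted in MDA-MB-231, had 6436 to 7458 counts in capsules, 7416 to 10816 in L.O and 11 to 21 in Sph.WT. The capsule and L.O libraries thus go against the MDA-MB-231 label. Summed markers of luminal breast were also highest in Sph.WT, at 342 to 369.6 CPM in capsules, 428 to 476 in L.O and 1514 to 1618 in Sph.WT. The keratins KRT8, KRT18 and KRT19 carried that sum, with means of 638, 368 and 336 CPM in Sph.WT. Of the 10 luminal markers in the table, 7 had their highest mean in Sph.WT, while the luminal regulator FOXA1 was at 11.2, 16.8 and 1.38 CPM in capsules, L.O and Sph.WT and the hormone receptor PGR had no count in Sph.WT (29 to 42 in capsules, 54 to 58 in L.O). Of 6 fibroblast markers, 4 were highest in Sph.WT, and the collagen chains COL1A2 and COL1A1 went opposite ways, COL1A2 at 0.453, 0.312 and 177 CPM and COL1A1 at 37.4, 74.8 and 15.8. Of 6 immune markers listed, PTPRC, CD3E, LYZ and MS4A1 were not in the table, and the other 2, CD68 and CD14, were highest in Sph.WT. Of 5 endothelial markers listed, CDH5 and TEK were not in the table, and 2 of the other 3 were highest in Sph.WT. The endothelial sum was 0.49 to 0.954 CPM in capsules, 1.34 to 2.27 in L.O and 7.01 to 12.6 in Sph.WT. Every difference from Sph.WT below moves with these shifts, and cell identity, file handling and culture cannot be told apart in it. In bulk RNA, fewer cells of a type and less RNA per cell cannot be told apart either.

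The sequences upstream of both α subunit genes and of EGLN1 are shown because with TMM scaling, edgeR's correction for composition, these members were higher in every Sph.WT library than in all others, each by over 1.5-fold against capsules. Each line holds the 250 bases before the annotated start in RefSeq (GRCh38.p14, 5′ to 3′ on the gene's strand). Capitals mark ACGTG or GCGTG, searched on both strands with overlaps allowed. The windows are chr14:61695263-61695512 on the plus strand, chr2:46297157-46297406 on the plus strand and chr1:231422288-231422537 on the minus strand.
HIF1A: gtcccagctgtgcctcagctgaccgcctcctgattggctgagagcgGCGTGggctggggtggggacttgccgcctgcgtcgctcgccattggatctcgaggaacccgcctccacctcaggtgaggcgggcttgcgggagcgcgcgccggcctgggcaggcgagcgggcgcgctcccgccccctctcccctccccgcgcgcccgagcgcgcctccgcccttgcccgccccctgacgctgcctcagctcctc
EPAS1: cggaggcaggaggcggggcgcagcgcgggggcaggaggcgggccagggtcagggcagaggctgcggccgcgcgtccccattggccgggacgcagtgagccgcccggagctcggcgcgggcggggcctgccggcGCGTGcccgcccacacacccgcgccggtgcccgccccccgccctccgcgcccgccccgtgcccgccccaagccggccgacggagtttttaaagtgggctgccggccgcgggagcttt
EGLN1: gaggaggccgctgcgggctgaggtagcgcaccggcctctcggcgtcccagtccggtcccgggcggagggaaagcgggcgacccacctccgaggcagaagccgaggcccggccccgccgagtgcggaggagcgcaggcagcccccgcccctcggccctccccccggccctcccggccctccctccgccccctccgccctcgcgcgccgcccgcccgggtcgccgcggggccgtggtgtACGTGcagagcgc
HIF1A and EPAS1 held 1 GCGTG each, at 204 and 117 bases before the start, and EGLN1 held 1 ACGTG at 13 bases before it. EGLN2 held 2 overlapping matches, and ARNT, HIF1AN and the target EGLN3 held none. Of 35116 promoter windows of this length, 43.2% held at least 1 match, and 4 of the 6 members with an entry did. VHL had no entry.

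HIF1A, the α subunit present in nearly all cells, was far higher in Sph.WT than in the other libraries. It was at 62.4, 58.0 and 69.9 CPM (counts scaled to library size, here with TMM) in capsule replicates 1, 2 and 3. In L.O it was at 65.3, 61.5 and 54.5 CPM, and in Sph.WT at 544, 730.5 and 599.8 CPM. The capsule and L.O values overlapped, and all 3 Sph.WT values lay far above them. The log2 difference was -3.30 ± 0.105 (SE) for capsules against Sph.WT, a 9.85-fold lower level (adjusted p = 1.52e-18), and -3.37 ± 0.104 for L.O against Sph.WT (adjusted p = 9.39e-19). Capsules and L.O differed by 0.07 ± 0.102, which did not pass the test (adjusted p = 0.604). HIF1A (Entrez 3091) lies on chromosome 14 from 61695513 to 61748258 in GRCh38.p14, the build of all positions here, and 5.14% of its exon bases overlap other annotated genes.

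EPAS1, the α subunit also known as HIF2A and best known from endothelial cells, had the same high set with a smaller step. Capsule replicates 1 to 3 were at 20.3, 23.2 and 22.4 CPM, L.O at 26.2, 27.1 and 24.6 CPM and Sph.WT at 101, 128 and 99.5 CPM. None of the 3 sets overlapped: capsules were lowest and Sph.WT highest. Capsules were 5.00-fold lower than Sph.WT (log2 difference -2.32 ± 0.102, adjusted p = 6.56e-16) and L.O was 4.23-fold lower (-2.08 ± 0.098, adjusted p = 2.60e-15). The step from L.O to capsules, -0.24 ± 0.106, missed the threshold (adjusted p = 0.0688). It passed with DESeq2-type size factors (-0.28, adjusted p = 0.0299), library totals (-0.39, adjusted p = 0.00363) DESeq2 (-0.28, adjusted p = 0.0389), a fit on those sets alone (adjusted p = 0.0367) and without Sph.WT replicate 2 (adjusted p = 0.033). EPAS1 (Entrez 2034) lies on chromosome 2 from 46297407 to 46386697.

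ARNT, the β subunit that both α subunits need to bind DNA, had small differences whose direction depended on the scaling. Its levels were 65.1, 63.0 and 62.4 CPM in capsules, 68.5, 69.6 and 58.6 CPM in L.O and 72.8, 74.7 and 76.2 CPM in Sph.WT. The Sph.WT values were the highest, and those of capsules and L.O overlapped. The log2 difference from Sph.WT was -0.23 ± 0.079 for capsules (adjusted p = 0.0101) and -0.18 ± 0.078 for L.O (adjusted p = 0.0326). Both turned positive when libraries were scaled by their totals (0.08 and 0.28), so no direction is given for ARNT between these sets. Capsules and L.O differed by -0.05 ± 0.080 (adjusted p = 0.665), and by -0.20 with library totals (adjusted p = 0.044). ARNT (Entrez 405) lies on chromosome 1 from 150809713 to 150876599.

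**Figure D1:**
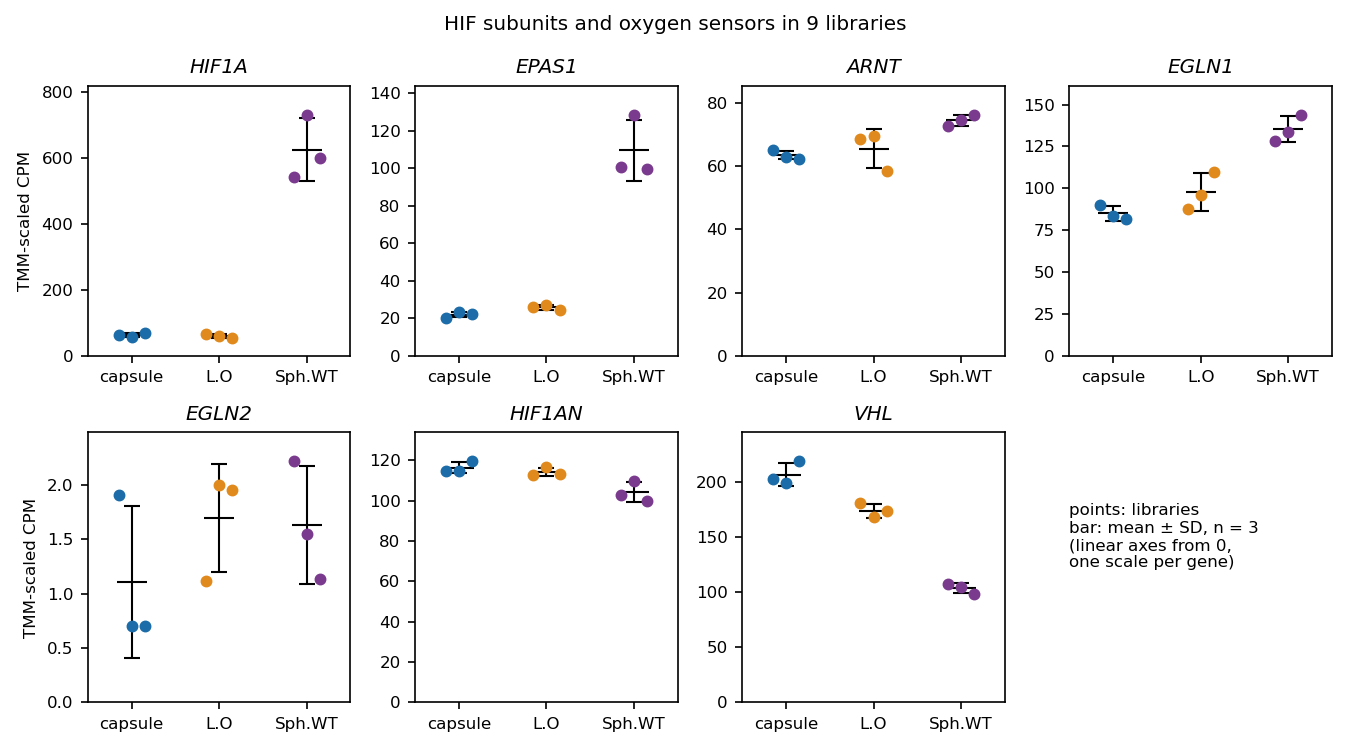
Levels of the 7 genes in 9 libraries, in TMM-scaled CPM on linear axes that start at 0, with 1 scale for each gene. Points are libraries and bars are mean ± SD (n = 3 per set). HIF1A has means of 63.4 CPM in capsules, 60.45 in L.O and 624.7 in Sph.WT, and VHL has 207, 174 and 104 CPM.

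EGLN1, the main prolyl hydroxylase for HIF1A and itself a HIF target, was highest in Sph.WT with TMM scaling. It was at 89.9, 83.2 and 82.0 CPM in capsules, 87.4, 95.8 and 110.0 CPM in L.O and 128, 134 and 144 CPM in Sph.WT. Capsules and L.O overlapped in 1 library each, and Sph.WT lay above both. The log2 difference from Sph.WT was -0.67 ± 0.084 for capsules (adjusted p = 1.22e-07) and -0.47 ± 0.083 for L.O (adjusted p = 1.69e-05). With library totals the first was -0.36 (adjusted p = 0.000545) and the second was near 0 and no longer called (-0.0052, adjusted p = 0.954). The difference of -0.20 ± 0.084 between capsules and L.O missed the threshold (adjusted p = 0.0551). It passed with library totals (-0.35, adjusted p = 0.00201), DESeq2-type size factors (-0.24, adjusted p = 0.025), DESeq2 (-0.24, adjusted p = 0.0288), a fit on those sets alone (adjusted p = 0.0462) and without L.O replicate 1 (-0.27, adjusted p = 0.0141). EGLN1 (Entrez 54583) lies on chromosome 1 from 231363756 to 231422287.

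EGLN2, a further prolyl hydroxylase, had few counts in every library. There were 26, 10 and 10 counts in capsules, 20, 37 and 35 in L.O and 37, 42 and 16 in Sph.WT. The sets overlapped, at 1.10 ± 0.696, 1.69 ± 0.495 and 1.63 ± 0.545 CPM (SD, n = 3). None of the 3 differences between sets passed the test, with adjusted p of 0.177, 0.151 and 0.897. Without capsule replicate 1, which had the most counts of its set, capsules were lower than L.O (-1.26, adjusted p = 0.0195) and than Sph.WT (-1.21, adjusted p = 0.00969). In GENCODE 29, 30.6% of the exon bases of EGLN2 are shared with the readthrough gene RAB4B-EGLN2 on the same strand, so its counts are uncertain, and the part of this overlap in them was not tested. EGLN2 (Entrez 112398) lies on chromosome 19 from 40799191 to 40808434.

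HIF1AN, the asparaginyl hydroxylase also called FIH, was lowest in Sph.WT, by a step whose size depended on the scaling. It was at 115, 115 and 119 CPM in capsules, 113, 116 and 113 CPM in L.O and 103, 109.9 and 100 CPM in Sph.WT. Sph.WT values lay below the others without overlap. The log2 difference of capsules from Sph.WT was 0.16 ± 0.070 (adjusted p = 0.0427), and 0.47 with library totals (adjusted p = 1.33e-06). With TMM this call was lost without the filter on low counts (adjusted p = 0.0514) and without any 1 of capsule replicates 1, 2 and 3 or Sph.WT replicates 1 and 3 (adjusted p from 0.0619 to 0.155). L.O and Sph.WT differed by 0.13 ± 0.070, which did not pass (adjusted p = 0.0887). It was 0.59 with library totals (adjusted p = 3.96e-08), 0.20 with DESeq2-type size factors (adjusted p = 0.0082), 0.20 with DESeq2 (adjusted p = 0.0058) and 0.18 in a fit on those sets alone (adjusted p = 0.0322), and passed in each. Capsules and L.O differed by 0.03 ± 0.070 (adjusted p = 0.775). HIF1AN (Entrez 55662) lies on chromosome 10 from 100535943 to 100559998, and 2.33% of its exon bases overlap NDUFB8 on the other strand.

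VHL, the recognition subunit of the ligase, ran opposite to both α subunits against Sph.WT. Between capsules and L.O, where HIF1A values overlapped, VHL was the only member called with TMM scaling. It was at 202, 199 and 218 CPM in capsules, 181, 168 and 173 CPM in L.O and 108, 105 and 98.3 CPM in Sph.WT. None of the 3 sets overlapped with this scaling: capsules were highest and Sph.WT lowest. With library totals the capsule values of 208.9, 205.4 and 229.6 CPM overlapped those of L.O, at 206.7, 194.5 and 199.9 CPM. Capsules exceeded L.O by 0.25 ± 0.071 on the log2 scale, 1.19-fold (adjusted p = 0.00642). The call was lost with library totals (0.10, adjusted p = 0.247), a scaling that moves the median of all genes by -0.15 between these sets. Capsules exceeded Sph.WT by 1.00 ± 0.072, 1.99-fold (adjusted p = 8.05e-12), and L.O exceeded Sph.WT by 0.75 ± 0.072, 1.68-fold (adjusted p = 1.30e-09), or by 1.21 with library totals. VHL (Entrez 7428) lies on chromosome 3 from 10141778 to 10153667.

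Between capsules and L.O, 1 of the 7 members passed edgeR's test, where 45.5% of the 16985 genes tested did. That gene, VHL, was higher in capsules (22.5% of all genes). In each of 4 other settings 3 members passed: with library totals (47.0% of all genes), DESeq2-type size factors (45.5%), DESeq2 (39.8%) and a fit on those sets alone (50.1%). With library totals 0 were higher (13.0% of all genes) and 3 lower (33.9%) in capsules. In each of the other 3 settings 1 was higher (17.9% to 24.7% of all genes) and 2 were lower (21.9% to 25.7%). With TMM scaling VHL and EPAS1 were the members whose capsule and L.O values did not overlap, VHL higher (27.1% of all genes) and EPAS1 lower (27.8%). With library totals VHL overlapped, and EPAS1, ARNT, EGLN1 and HIF1AN were lower in capsules without overlap. The share of all genes was not computed for overlap with that scaling. Between capsules and Sph.WT 6 of 7 passed (85.0% of all genes), 2 higher (43.0%) and 4 lower (42.0%) in capsules. Between L.O and Sph.WT 5 of 7 passed (85.5% of all genes), 1 higher (42.4%) and 4 lower (43.1%) in L.O. HIF1A and EPAS1 were lower by at least 2-fold in both, against 25.2% and 25.0% of all genes. The shares against Sph.WT are near those of all genes. The 3 comparisons share libraries, so they are not separate evidence. The median log2 difference over the 7 members was -0.05 between capsules and L.O, -0.58 between capsules and Sph.WT and -0.18 between L.O and Sph.WT, where the medians of all genes were -0.02, 0.03 and -0.01. Each of these medians over 7 genes is the value of 1 gene: ARNT in the first and last comparison and EGLN2, with few counts, in the second. With library totals they were -0.20, -0.26 and 0.28, where those of all genes were -0.17, 0.35 and 0.45, so no direction is given for the members as a set.

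Grouped as labelled, capsules against all 6 spheroid columns, no member passed edgeR's test (0 of 7, where 3.76% of all genes did). Of the 7, 4 had an unadjusted p under 0.05 (29.0% of all genes), and DESeq2 called 3 (22.7% of the genes it tested), namely HIF1A, EPAS1 and EGLN1, with adjusted p of 0.0338, 0.041 and 0.0445. The log2 difference of HIF1A was -2.43 ± 1.044 (adjusted p = 0.167), and its 6 spheroid values ran from 54.5 to 730.5 CPM with a median of 304.5. EPAS1 was at -1.62 ± 0.654 (adjusted p = 0.154) and VHL at 0.57 ± 0.233 (adjusted p = 0.155). With TMM scaling EPAS1 was lower in capsules without overlap (12.5% of all genes) and VHL higher (14.1%), and the other 5 members overlapped. With library totals VHL overlapped, and EGLN1 joined EPAS1 in being lower in capsules without overlap. With a level for each spheroid set and capsules set against their mean, 4 members passed (74.4% of all genes): HIF1A, EPAS1 and EGLN1 lower and VHL higher. All 4 were called against Sph.WT alone, but only VHL against L.O alone, where HIF1A differed by 0.07.

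**Figure D2:**
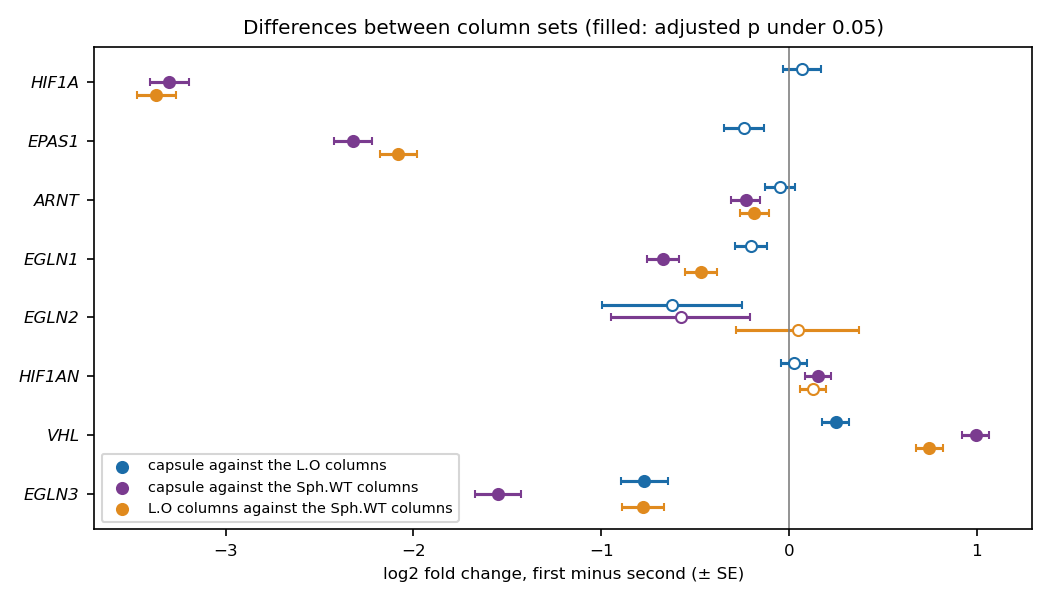
Log2 fold changes of the 7 genes and the paralog EGLN3 for the 3 comparisons of column sets, first minus second, with the SE of edgeR's quasi-likelihood fit as bars. Filled points have an adjusted p under 0.05. Capsules against L.O lie between -0.77 and 0.25, and HIF1A and EPAS1 lie beyond -2 in both comparisons with Sph.WT.

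Levels were compared between genes after division by exon length (TMM-scaled CPM per kilobase of joined exons, GENCODE 29, which can exceed the mRNA expressed). In capsules VHL led at 49.0 ± 2.47 per kilobase (SD, n = 3), followed by HIF1A at 12.3 ± 1.17, EGLN1 at 11.7 ± 0.584, ARNT at 9.75 ± 0.211, HIF1AN at 8.34 ± 0.195, EPAS1 at 3.01 ± 0.203 and EGLN2 at 0.168 ± 0.106. Only HIF1A and EGLN1 overlapped among these neighbours. In L.O EGLN1 stood above HIF1A and the order was otherwise the same, with EGLN1 and HIF1A, and HIF1A and ARNT, overlapping. In Sph.WT HIF1A led at 121 ± 18.6 per kilobase, ahead of VHL at 24.6 ± 1.13, EGLN1 at 18.6 ± 1.08, EPAS1 at 15.01 ± 2.23, ARNT at 11.4 ± 0.265, HIF1AN at 7.47 ± 0.366 and EGLN2 at 0.248 ± 0.0828, with no overlap between neighbours. VHL was thus the highest member per kilobase in capsules and L.O and stood behind HIF1A in Sph.WT.

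Ratios within a library change little with its scaling. EPAS1 reached 0.331, 0.405 and 0.325 of the HIF1A level in capsules (ratios of CPM + 0.5, not divided by exon length). The ratios were 0.405, 0.445 and 0.455 in L.O and 0.186, 0.176 and 0.167 in Sph.WT. Divided by exon length, the mean ratios were 0.249 in capsules, 0.307 in L.O and 0.1245 in Sph.WT. The share of EPAS1 was lowest in Sph.WT, where both genes were high. Against all 6 spheroid libraries the capsule ratio differed by 0.35 on the log2 scale (exact permutation test, two-sided, p = 0.452, adjusted over 3 ratios 0.679), and by -0.30 against L.O and 1.00 against Sph.WT. The log2 ratio of EGLN1 to EGLN2 differed by 0.08 between capsules and spheroids, within the spread (exact permutation p = 0.786, adjusted 0.786).

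EGLN3, a prolyl hydroxylase strongly induced by HIF in many cells, was lowest in capsules and highest in Sph.WT. It was at 10.8, 11.6 and 9.59 CPM in capsules, 16.3, 18.0 and 20.2 CPM in L.O and 30.1, 28.1 and 35.7 CPM in Sph.WT, and no sets overlapped with this scaling. The log2 difference was -0.77 ± 0.125 for capsules against L.O, 1.71-fold lower (adjusted p = 3.42e-05), and -0.78 ± 0.111 for L.O against Sph.WT (adjusted p = 9.14e-07). With library totals the L.O and Sph.WT values overlapped, at 18.6, 20.9 and 23.3 against 25.4, 23.0 and 30.4 CPM, and their difference was -0.32 (adjusted p = 0.0146). Its ratio to EGLN1 was 0.130 ± 0.0119 in capsules, 0.190 ± 0.00272 in L.O and 0.2345 ± 0.01915 in Sph.WT (SD, n = 3). The capsule ratio was below all 6 spheroid values, with a log2 difference of -0.70 and p = 0.0238, the smallest that the exact permutation test of 3 against 6 libraries allows, and 0.0714 when adjusted over the 3 ratios.

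**Figure D3:**
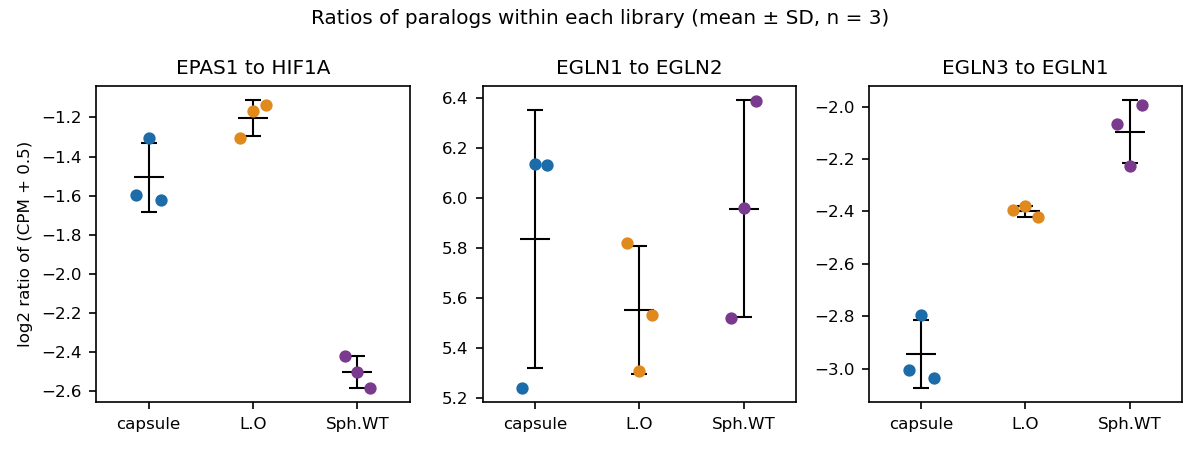
Log2 ratios of paralogs within each library, from CPM + 0.5, with points for libraries and bars for mean ± SD (n = 3 per set). EGLN3 to EGLN1 has means of -2.94 in capsules, -2.40 in L.O and -2.10 in Sph.WT, and EPAS1 to HIF1A is lowest in Sph.WT (-2.50).

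The rest of the HIF machinery was read from a list of 28 paralogs, cofactors and degradation factors, of which 27 passed the filter on low counts. Between capsules and L.O, 10 were higher (22.5% of all genes) and 6 lower (23.0%) in capsules, with a median log2 difference of -0.04, and with library totals 5 were higher (13.0% of all genes) and 9 lower (33.9%). All 4 partners of VHL in the ligase were among the higher ones, 3 of them under each scaling. RBX1, the RING subunit, was at 106 ± 7.90 CPM in capsules and 74.1 ± 6.56 in L.O (0.52 ± 0.090 on the log2 scale, adjusted p = 7.32e-05). The adaptor ELOC differed by 0.44 (adjusted p = 0.000274), the scaffold CUL2 by 0.42 (adjusted p = 0.000589) and the adaptor ELOB by 0.29 (adjusted p = 0.015), the last with overlapping values. ELOC and CUL2 were at 0.29 and 0.27 with library totals (adjusted p = 0.00719 and 0.0132). The call of ELOB was lost with library totals (0.14, adjusted p = 0.25) and without L.O replicates 1 or 2 or capsule replicates 1 or 2 (adjusted p from 0.0545 to 0.104). SIAH2, a ligase that targets prolyl hydroxylases, was 1.40-fold higher (adjusted p = 0.000759). CITED2, which competes with HIF for coactivators and is a HIF target, was at 48.45 ± 6.01 CPM in capsules and 113 ± 23.1 in L.O (-1.22 ± 0.117, adjusted p = 5.65e-08), and its relative CITED4 differed by -0.77 (adjusted p = 0.0304). CITED4 lost its call without L.O replicate 3 (-0.31, adjusted p = 0.365) and without any 1 of the 3 capsule libraries (adjusted p from 0.0518 to 0.0984).

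Against Sph.WT, 8 of the 27 were higher (43.0% of all genes) and 15 lower (42.0%) in capsules, and L.O had 9 higher (42.4%) and 14 lower (43.1%). With library totals the split was 10 higher and 10 lower in capsules (51.5% and 33.8% of all genes) and 14 and 8 in L.O (55.0% and 31.1%), so no direction is given for the list. In all, 23 of 27 were called between capsules and Sph.WT, where 85.0% of all genes were. RBX1 and ELOB were higher in capsules than in Sph.WT, by 1.25 and 1.21 (adjusted p = 1.17e-11 and 4.41e-11), and ELOC by 0.35 (adjusted p = 0.000658; 0.67 with library totals). CUL2 was lower, at 33.05 ± 1.90 CPM against 84.9 ± 6.36 (-1.36 ± 0.084, adjusted p = 4.45e-13). ARNT2, the paralog of ARNT best known from neurons, was at 37.3 ± 2.02 CPM in capsules, 36.6 ± 3.67 in L.O and 178.5 ± 7.47 in Sph.WT, 4.78-fold lower in capsules than in Sph.WT (adjusted p = 3.51e-17). RACK1, a scaffold that promotes oxygen-independent loss of HIF1A, was 2.96-fold higher in capsules than in Sph.WT (adjusted p = 9.51e-15), and RHOBTB3 and AJUBA, both linked to HIF1A degradation, were 11.6-fold and 9.86-fold lower (adjusted p = 2.43e-21 and 1.57e-19). P4HTM, a transmembrane prolyl hydroxylase, had 3 to 15 counts in capsules, 11 to 15 in L.O and 811 to 1381 in Sph.WT. HIF3A, a further α subunit, was not tested: it had 0 to 1 counts in capsules, 9 to 18 in L.O and 0 to 1 in Sph.WT. Grouped as labelled, 1 of 27 was called, near the share of all genes (3.76%): CITED2, 3.26-fold lower in capsules (adjusted p = 0.0293).

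All 36 HIF target genes listed were tested. Between capsules and L.O, 6 were higher (22.5% of all genes) and 20 lower (23.0%) in capsules, against 4 (13.0%) and 22 (33.9%) with library totals. With TMM scaling the list's median log2 difference was -0.27 where that of all genes was -0.02. Higher genes included the stress-induced mTOR inhibitor DDIT4 (1.57-fold, adjusted p = 1.72e-06), the secreted glycoprotein STC2 (1.49-fold, adjusted p = 8.26e-07) and the glycolytic enzyme ENO1 (1.38-fold, adjusted p = 1.56e-05). Lower genes included CITED2 (2.33-fold, adjusted p = 5.65e-08), the glycolytic regulator PFKFB4 (1.84-fold, adjusted p = 1.90e-07) and the peptide hormone ADM (1.69-fold, adjusted p = 5.58e-05). CA9, the hypoxia-induced carbonic anhydrase, was also lower but had few counts, 0 to 10 in capsules and 17 to 35 in L.O. Its call was lost with DESeq2 (adjusted p = 0.117) and without L.O replicate 3 or capsule replicate 3 (adjusted p = 0.141 and 0.15). Against Sph.WT, 5 targets were higher (43.0% of all genes) and 28 lower (42.0%) in capsules, with a median of -1.11 (all genes 0.03). In all, 33 of 36 were called, where 85.0% of all genes were. With library totals 8 were higher (51.5% of all genes) and 23 lower (33.8%). STC2 was at 302 ± 2.06 CPM in capsules and 2.00 ± 0.210 in Sph.WT, and the carbonic anhydrase CA12 was at 5.36 ± 0.704 and 206 ± 49.7 CPM, in the other direction. Grouped as labelled, 4 of 36 were called (all genes 3.76%), all lower in capsules, among them CITED2, PFKFB4 (2.09-fold, adjusted p = 0.0154) and ADM (2.02-fold, adjusted p = 0.0427). Each of these 3 lost its call without any 1 capsule library (adjusted p from 0.112 to 0.235), CITED2 also without any 1 Sph.WT library and ADM without any 1 library.

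**Figure D4:**
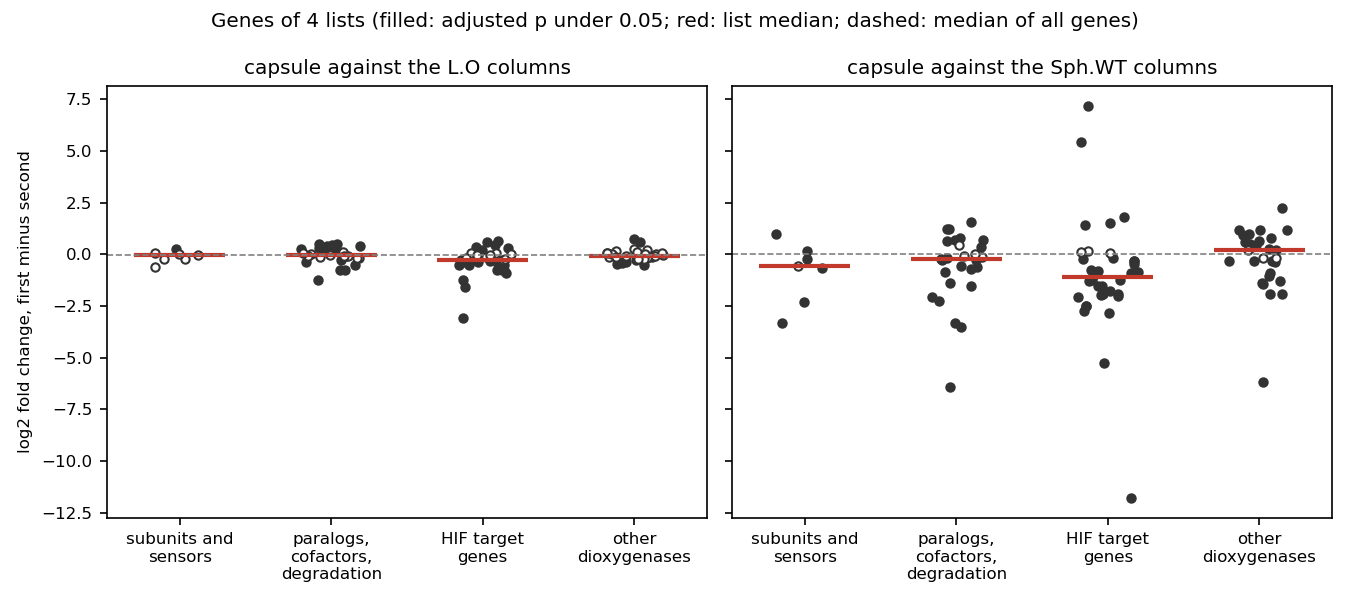
Log2 fold changes of each tested gene in 4 lists, for capsules against L.O and capsules against Sph.WT, on a shared axis. Filled points have an adjusted p under 0.05, red lines are list medians and the dashed line is the median of all genes. HIF target genes have medians of -0.27 and -1.11.

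Genes with the profile nearest to each member were found by the root mean square distance between centred log2(CPM + 0.5) values over the 9 libraries, a description with no test. For HIF1A these were LRP12, UGCG and FUT8 (0.0714 to 0.0891) and for EPAS1 CTNNA1, NPC1 and ZNF862 (0.0638 to 0.0769). For ARNT they were ATXN2, SEC16A and INPP4A (0.0459 to 0.0512), for EGLN1 KDELR1, MGAT2 and BBS1 (0.0764 to 0.0833) and for HIF1AN UBN1, HPS4 and STK35 (0.0371 to 0.0439). The nearest to VHL were SHQ1, GPATCH11 and POLR2C (0.0382 to 0.0523). Those of EGLN2, MSANTD2-AS1, SMC5-DT and GPR146 (0.196 to 0.221), were farther away.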

How the data were processed

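The authors deposited 1 table of raw read counts per Entrez gene ID for 9 libraries. Reads were assigned on hg38 and featureCounts and limma were used, per the submitters' processing notes. Apart from subread in the names of the capsule and L.O columns, the aligner is not given in the sources used here. Nor are its settings, the annotation and the strand rule, so reads of overlapping genes cannot be separated. Capsule columns were matched to samples by name, and the L.O and Sph.WT columns to the spheroid group only.

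Counts were scaled with TMM and tested with edgeR 4.0.16 (R 4.3.3) by its quasi-likelihood test after its default filter on low counts (16985 genes kept), with Benjamini-Hochberg adjustment over all genes and a threshold of 0.05. The comparison set out first was capsules against all 6 spheroid columns, without a replicate block. A fit with 1 level for each column set gave the comparisons between sets, and the lists and alternatives for capsules against a single set were added after seeing the data. The SE is the size of the log2 difference over the square root of F. Levels are TMM-scaled CPM, mean ± SD. A count of 0 allows up to 3 counts, 0.0902 to 0.227 CPM by library, which covers counting error only because PCR copies cannot be told from separate molecules. The biological coefficient of variation was 6.01% in capsules, 8.31% in L.O and 8.12% in Sph.WT. The scripts were tested on simulated data.

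Members and lists were chosen with earlier results of these data known. Named genes were all members, EGLN3, HIF3A, ARNT2 and the VHL partners by role, and genes from the up to 3 in each list and direction with the largest change among those called without overlap. This rule was extended to the column sets after seeing the data. A listed gene is not reported here by name. Deviations from set means correlated at -0.116 to 0.0233 over 9 same-numbered pairs and -0.0860 to 0.145 over 18 others. No shared effect of the replicate number was seen, but with 3 libraries per set this cannot exclude a pairing. Alternatives were DESeq2 1.42.0, DESeq2-type size factors, library totals, no filter, a replicate block, single sets and each library left out. Python 3.11.15 with scipy 1.17.1 gave the exact permutation tests.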

Additional observations from a re-analysis of the deposited data

How the results depend on the processing

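The comparison of capsules with all 6 spheroid columns depended most on the setting. With DESeq2, the mean of the sets, L.O alone and Sph.WT alone, in this order, the members called were 3, 4, 1 and 6 in place of 0, the machinery genes 10, 21, 16 and 23 in place of 1, the targets 16, 32, 26 and 33 in place of 4, the dioxygenases 6, 24, 7 and 26 in place of 1 and all genes 3990, 12643, 7732 and 14442 in place of 639. With library totals, 3 machinery genes and 359 of all genes were called. With the replicate block, 0 machinery genes, 0 targets, 0 dioxygenases and 0 of all genes were called, and the members stayed at 0. Without 1 library, 0 members, 0 to 2 machinery genes, 0 to 3 targets, 0 to 1 dioxygenases and 0 to 604 of all genes were called: 0 without any 1 capsule replicate, 154, 240 and 207 without Sph.WT replicate 1, 2 or 3, and 287 and 409 without L.O replicate 2 or 3. The causes were not tested.

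Between capsules and L.O, the 1 member called became 3 with DESeq2-type size factors, 3 with library totals, 3 with DESeq2 and 3 in a fit on those sets alone, and was 1 to 2 without 1 library. All genes called were 45.5%, 47.0%, 39.8% and 50.1% in these settings, in place of 45.5%. The 7 dioxygenases of 29 became 12 with DESeq2-type size factors and 16 with library totals. Against Sph.WT, the members called stayed at 5 to 6 for capsules and 4 to 5 for L.O without 1 library. The replicate block also ended the call of HIF1AN between capsules and Sph.WT (0.16, adjusted p = 0.0604). Library totals move the median of all genes by -0.15 for capsules against L.O, 0.31 against Sph.WT and 0.46 for L.O against Sph.WT. The share of calls higher in the first set was then 27.8% in place of 49.5%, 60.3% in place of 50.6% and 63.9% in place of 49.6%, and for the labels' grouping 27.6% in place of 61.0%.

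Signs turned for small differences and, against L.O alone, for the larger ones of HIF1A, ARNT2 and CUL2 against all 6 spheroid columns. HIF1A was 0.0695 against L.O alone in place of -2.43, and -0.0796 against L.O with library totals. HIF1AN between capsules and L.O was -0.0138 with DESeq2-type size factors, -0.1224 with library totals and -0.0101 with DESeq2. ARNT with library totals was 0.0820 for capsules and 0.2781 for L.O against Sph.WT. ARNT2 was 0.0281 and CUL2 0.4167 against L.O alone in place of -1.53 and -0.73. ARNT2 between capsules and L.O was -0.0128 with DESeq2-type size factors, -0.1215 with library totals, -0.0092 with DESeq2 and -0.0505 without L.O replicate 3, and ELOC between L.O and Sph.WT was 0.3764 with library totals. EGLN2 between L.O and Sph.WT lay from -0.12 to 0.28 without 1 library. The log2 ratio of EPAS1 to HIF1A was -0.3044 against L.O alone and 0.20 to 0.49 without 1 library. That of EGLN1 to EGLN2 was -0.0183 with a pseudocount of 1 CPM, -0.1216 against Sph.WT alone and -0.07 to 0.38 without 1 library (lowest -0.0699), and that of EGLN3 to EGLN1 was -0.77 to -0.65. With 3 libraries against 3, the exact test cannot go below 0.1. Depth limits EGLN2, HIF3A and CA9.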

Other observations

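Other oxygen-dependent enzymes were read from a list of 29 dioxygenases outside the HIF hydroxylases, all of which were tested. The lists share genes, so their counts are not separate. P4HA1 and P4HA2 are also among the HIF targets, and CITED2 is in both the machinery and the target list. Between capsules and L.O, 2 were higher and 5 lower in capsules (45.5% of all genes called). OGFOD1, a ribosomal prolyl hydroxylase, was at 80.7 ± 1.02 CPM in capsules and 48.7 ± 3.25 in L.O (SD, n = 3), 1.66-fold (adjusted p = 4.43e-07 by edgeR's quasi-likelihood test), and RIOX2, a ribosomal oxygenase, was 1.52-fold higher (adjusted p = 8.23e-06). Lower in capsules were P4HA2, a collagen prolyl hydroxylase (1.42-fold, adjusted p = 2.05e-05), and the histone demethylases KDM5B (1.40-fold, adjusted p = 6.87e-05) and KDM6B (1.33-fold, adjusted p = 0.000165). Grouped as labelled, 1 of 29 was called, near the share of all genes (3.76%): OGFOD1, 1.80-fold higher in capsules (adjusted p = 0.0153), a call lost without any 1 capsule library (adjusted p from 0.106 to 0.133) and with library totals (0.0791).

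Against Sph.WT, 14 of these 29 were higher and 12 lower in capsules (85.0% of all genes called). TET1, a DNA demethylase, was at 28.7 ± 0.801 CPM in capsules, 27.7 ± 3.59 in L.O and 5.87 ± 0.645 in Sph.WT. The collagen prolyl hydroxylases P4HA1 and P4HA2 were 3.78-fold and 3.79-fold lower in capsules than in Sph.WT (adjusted p = 6.67e-16 and 1.26e-16). RIOX1 had 4 to 6 counts in capsules, 5 to 7 in L.O and 322 to 663 in Sph.WT, as with P4HTM. In GENCODE 29, 3.46% of the exon bases of RIOX1 and 2.57% of those of P4HTM overlap other genes, and the part of file handling in either was not tested.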
